A study of Mus musculus with 15 samples.

Results

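The highest sorbitol dose, 300 mM, was set against the lowest, 200 mM, in mouse embryonic stem cells. The comparison used 3 libraries of each dose, 6 of the 15 libraries of the study, and was made over all genes. Of 21516 gene symbols, 5115 had no count in these 6 libraries, and 8928 had enough counts to be tested. The 3 libraries at 250 mM entered the fit for the estimate of the spread and are shown for the order of the doses, but they are no side of the test.

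All cells came from 1 reporter line that carries a red fluorescent protein under the promoter of Rex1 (the Zfp42 gene), which is active in undifferentiated stem cells. Cells were first grown for about 18 h with leukaemia inhibitory factor (LIF), the cytokine that keeps mouse stem cells undifferentiated, to about 24% confluence, and were then kept for 72 h in their condition. The sorbitol cells (200, 250 or 300 mM) are compared here among themselves. The NS cells (normal stemness, with LIF) are given only as a level, and the cells that differentiated without LIF are not used. RNA was taken in Trizol and sequenced by Lexogen's 3' QuantSeq protocol, which counts tags near the 3' end of transcripts. The triplicates are described as biological. In a bulk sample, fewer cells of a type and less RNA per cell cannot be told apart.

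Sorbitol is a sugar alcohol that draws water out of cells. Cells meet the loss of volume by pumping in ions, and later by loading organic osmolytes such as myo-inositol and taurine through dedicated carriers. Among the pathways followed below, hypoxia-inducible factor is a transcription factor that is stable when oxygen is low and then switches on glycolysis, angiogenic signals and its own inhibitors, the EGLN prolyl hydroxylases. SREBP factors are held in the endoplasmic reticulum by INSIG proteins and are released when membrane sterols are low, upon which they switch on the genes of cholesterol and fatty acid synthesis.

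The 6 libraries held 982904 to 2216518 counts, so that 3 counts were worth 1.35 to 3.05 CPM (counts scaled to a common library size), the scale of all levels below. Expression of the embryonic stem cell markers fitted the label. The 8 fixed markers summed to 2028 to 2549 CPM at 200 mM and to 1701 to 2654 CPM at 300 mM. In the test between the doses 0 of the 8 passed, but only 1 of all 8928 genes did. The fibroblast genes Col3a1, Lum and Postn had no count in the 6 libraries, and the 8 fibroblast markers summed to at most 18.6 CPM. The 4 mesoderm markers summed to at most 7.23 CPM. The epiblast gene Fgf5 had no count, but the 3 epiblast markers, mostly Otx2, summed to 70.2 to 162 CPM at 200 mM and 83.4 to 115 CPM at 300 mM. The 4 neural markers, mostly Tubb3, summed to 84.9 to 117 CPM at 200 mM and 105 to 116 CPM at 300 mM. Of the libraries, 2 stood apart. On the first principal component of the 9 sorbitol libraries (37.7% of the variance) replicate 1 at 200 mM lay at -55.5 against -25.9 to 27.2 for the others, and on the second (22.5%) replicate 2 at 200 mM lay at -49.5 against -5.72 to 21.3. Some values below moved when 1 of them was left out. Within each dose the first component also rose in the order of the replicate numbers. It ran from -55.5 to 18.0 at 200 mM, -2.12 to 20.3 at 250 mM and -25.9 to 27.2 at 300 mM.

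A single gene, Egln3, differed between 300 and 200 mM past an adjusted p of 0.05, which is 0.0112% of the genes tested. It encodes the prolyl hydroxylase that marks hypoxia-inducible factor for destruction and is itself a target of that factor. Its level was 32.0, 56.8 and 29.1 CPM in replicates 1, 2 and 3 at 200 mM, 10.9, 22.8 and 22.7 CPM at 250 mM, and 3.23, 1.67 and 5.47 CPM at 300 mM. The NS libraries held 76.2, 91.8 and 48.5 CPM, so that the lowest NS library lay above 2 of the 3 libraries at 200 mM and above all those at 250 and 300 mM. No library at 300 mM reached the lowest at 250 mM, and none at 250 mM reached the lowest at 200 mM. Egln3 fell by 3.49 ± 0.48 on the log2 scale (SE, n = 3 per dose, 95% interval -4.52 to -2.46), or 11.2-fold, and its adjusted p was 0.0437 (quasi-likelihood test of edgeR, Benjamini-Hochberg over all genes tested). It rests on 156 counts at 200 mM and 14 at 300 mM. Its log2 change lay between -3.87 and -3.15 in the 14 alternative fits, and it passed the threshold in 7 of them. The adjusted p was 0.0267 without replicate 1 at 200 mM and 0.0143 without replicate 3, but 0.21 without replicate 2. Leaving out replicate 1, 2 or 3 at 300 mM gave 0.185, 0.527 and 0.102.

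Promoters of 4 of the genes described next are shown because their genes belong to the oxygen-responsive and glycolysis lists, whose members were mostly lower at 300 mM. They are RefSeq windows of GRCm38.p6, from 250 bases before to 50 bases after the start of transcription and written along the gene's own strand. They serve for their letters only, since the counts were made on the older build mm9. Capitals mark ACGTG on either strand, the core to which hypoxia-inducible factor binds. The search was added after the values were seen. CACGTG is its own reverse complement and holds the core on both strands. The Egln3 window (chr12:54203825-54204124, minus strand) held 1 match, that of Bnip3 (chr7:138909457-138909756, minus strand) 2 that overlap, that of Slc16a3 (chr11:120948817-120949116, plus strand) 2, and the first of the 2 Ldha windows (chr7:46845554-46845853, plus strand) 5.
Egln3: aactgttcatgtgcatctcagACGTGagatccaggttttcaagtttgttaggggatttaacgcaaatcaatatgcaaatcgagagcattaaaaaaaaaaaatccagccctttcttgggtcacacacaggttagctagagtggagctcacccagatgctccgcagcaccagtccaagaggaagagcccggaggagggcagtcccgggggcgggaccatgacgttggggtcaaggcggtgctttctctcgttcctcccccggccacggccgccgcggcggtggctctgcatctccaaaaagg
Bnip3: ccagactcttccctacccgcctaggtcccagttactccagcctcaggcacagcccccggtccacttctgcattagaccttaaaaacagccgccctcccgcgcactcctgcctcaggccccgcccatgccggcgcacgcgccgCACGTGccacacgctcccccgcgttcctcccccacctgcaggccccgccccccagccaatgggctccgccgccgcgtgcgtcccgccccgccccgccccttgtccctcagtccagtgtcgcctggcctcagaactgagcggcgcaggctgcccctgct
Slc16a3: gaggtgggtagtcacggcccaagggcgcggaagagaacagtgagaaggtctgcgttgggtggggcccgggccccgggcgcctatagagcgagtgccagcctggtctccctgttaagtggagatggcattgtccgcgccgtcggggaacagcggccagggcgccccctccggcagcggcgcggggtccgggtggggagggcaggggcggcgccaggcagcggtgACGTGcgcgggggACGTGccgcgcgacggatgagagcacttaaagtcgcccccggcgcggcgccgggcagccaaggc
Ldha: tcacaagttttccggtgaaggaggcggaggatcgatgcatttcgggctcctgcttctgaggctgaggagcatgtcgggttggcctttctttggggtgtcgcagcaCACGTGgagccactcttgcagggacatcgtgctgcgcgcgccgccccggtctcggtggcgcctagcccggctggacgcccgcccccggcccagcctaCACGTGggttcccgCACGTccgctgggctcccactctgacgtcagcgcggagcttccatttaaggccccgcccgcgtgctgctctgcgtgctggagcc
ACGTG was found in 15 of the 17 oxygen-responsive members tested that had a window (88.2%), in 13 of 20 of the glycolysis list (65%) and in 4 of 14 of the cholesterol list (28.6%), against 21.8% of all 27025 genes with a window. TCACNCCAC, a sterol element bound by SREBP, was found in 0 of 14 windows of the cholesterol list, in 0 of 17 of the oxygen-responsive list, in 2 of 20 of the glycolysis list (10%, Aldoc and Pkm) and in 1.44% of all genes. The oxygen-responsive list was drawn up from targets of hypoxia-inducible factor, so its share reflects the choice of its members and not the doses. The 27025 genes are not limited to the 8928 tested. A match is a description of the letters and not a binding site.

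At an unadjusted p under 0.05, 968 genes differed (10.8% of those tested), of which 614 were lower at 300 mM (6.88%) and 354 higher (3.97%). All 3 libraries at 300 mM lay below all 3 at 200 mM for 644 genes (7.21%) and above them for 559 (6.26%). The median log2 change over all genes was -0.01 and the median SE 0.33. In edgeR 0 genes were higher past the threshold, while DESeq2's Wald test on the same 9 libraries called 42 genes (0.47%), 5 higher and 37 lower. The 250 mM mean lay between the other doses for 41.7% of all tested genes. It did so for 81.1% of the 614 lower and 85.6% of the 354 higher genes, which were picked by their difference between the outer doses.

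**Figure D1:**
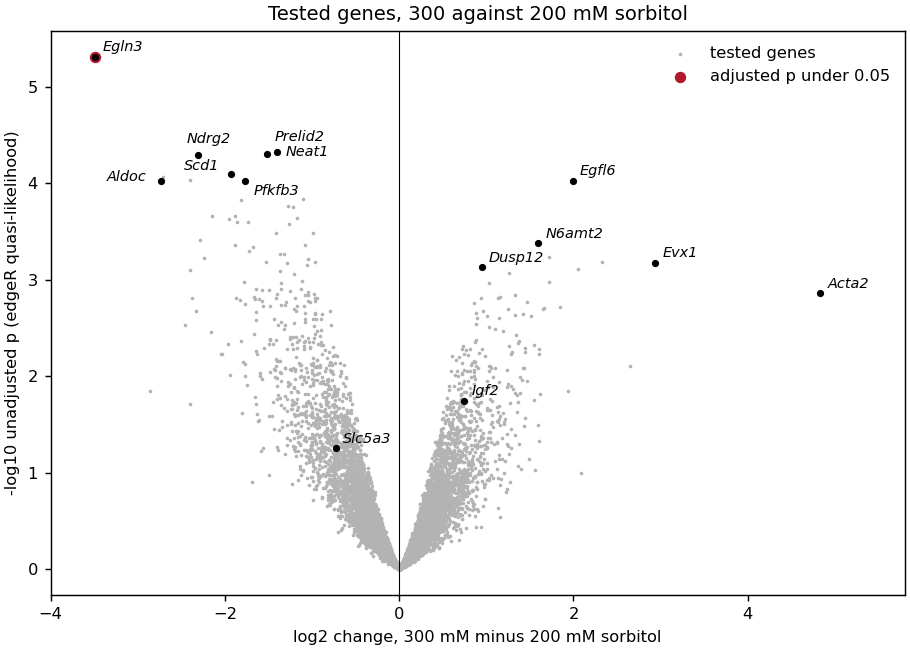
Each point is 1 of the 8928 tested genes, placed by its log2 change (300 mM minus 200 mM, horizontal) and by -log10 of its unadjusted p in edgeR's quasi-likelihood test (vertical), with some genes of the text labelled. Egln3, at -3.49, is the only gene past an adjusted p of 0.05, and the next genes on either side, such as Neat1 at -1.40 and Egfl6 at 1.99, share an adjusted p of 0.0853.

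The oxygen-responsive list, which holds targets of hypoxia-inducible factor outside the glycolytic enzymes, had 24 members in the files, of which 21 were tested. Of these 20 had a negative log2 change, the median was -0.60 against -0.01 over all genes, and 1, Egln3, passed in edgeR, while 4 were lower in DESeq2, Egln3, Pfkfb3, Bnip3 and Ero1l. At an unadjusted p under 0.05, 9 were lower and 0 higher in edgeR and in DESeq2 (42.9% lower, against 6.88% and 6.19% of all genes). All 300 mM libraries lay below all 200 mM libraries for 9 members, and for 7.21% of all genes. Between libraries of the same replicate number the median was -0.32, -1.11 and -0.52 for numbers 1, 2 and 3. Without replicate 2 at 200 mM it was -0.27, with 8 members lower at an unadjusted p under 0.05 (5.82% of all genes), and without replicate 1 at 200 mM -0.88, with 14 (7.42%).

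Pfkfb3 encodes the kinase that makes fructose 2,6-bisphosphate, the activator of phosphofructokinase. It stood at 34.5, 43.4 and 44.4 CPM at 200 mM, 15.04, 27.5 and 18.0 CPM at 250 mM and 14.0, 8.34 and 12.8 CPM at 300 mM. The 2 outer doses did not overlap, and the log2 change was -1.78 ± 0.33 (adjusted p = 0.0853 in edgeR). Bnip3, a mitochondrial protein of mitophagy, was measured at 112, 274 and 114 CPM at 200 mM, 56.5, 122 and 89.3 CPM at 250 mM and 55.5, 40.1 and 41.0 CPM at 300 mM. Replicate 2 at 200 mM held more than any other sorbitol library, and the outer doses again did not overlap (-1.86 ± 0.38, adjusted p = 0.107). Ero1l, the oxidase of disulphide formation in the endoplasmic reticulum, held 89.1, 212 and 87.3 CPM at 200 mM and 36.6, 45.9 and 34.6 CPM at 300 mM (-1.72 ± 0.38, adjusted p = 0.148). Its highest library at 300 mM was below its lowest at 200 mM. The transcription factor gene Bhlhe40 gave -1.65 ± 0.50, and Vegfa, the angiogenic growth factor, -0.75 ± 0.31, both without overlap. Ddit4, an inhibitor of mTORC1 that the ATF4 and p53 lists also hold, did overlap: its 200 mM libraries held 398, 2103 and 1064 CPM and its 300 mM libraries 456, 613 and 478 CPM. Kdm3a, a histone demethylase gene, was the member with a positive value, 0.70 ± 0.47 (adjusted p = 0.615). The glucose transporter gene Slc2a1 differed by -0.19 ± 0.34.

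**Figure D2:**
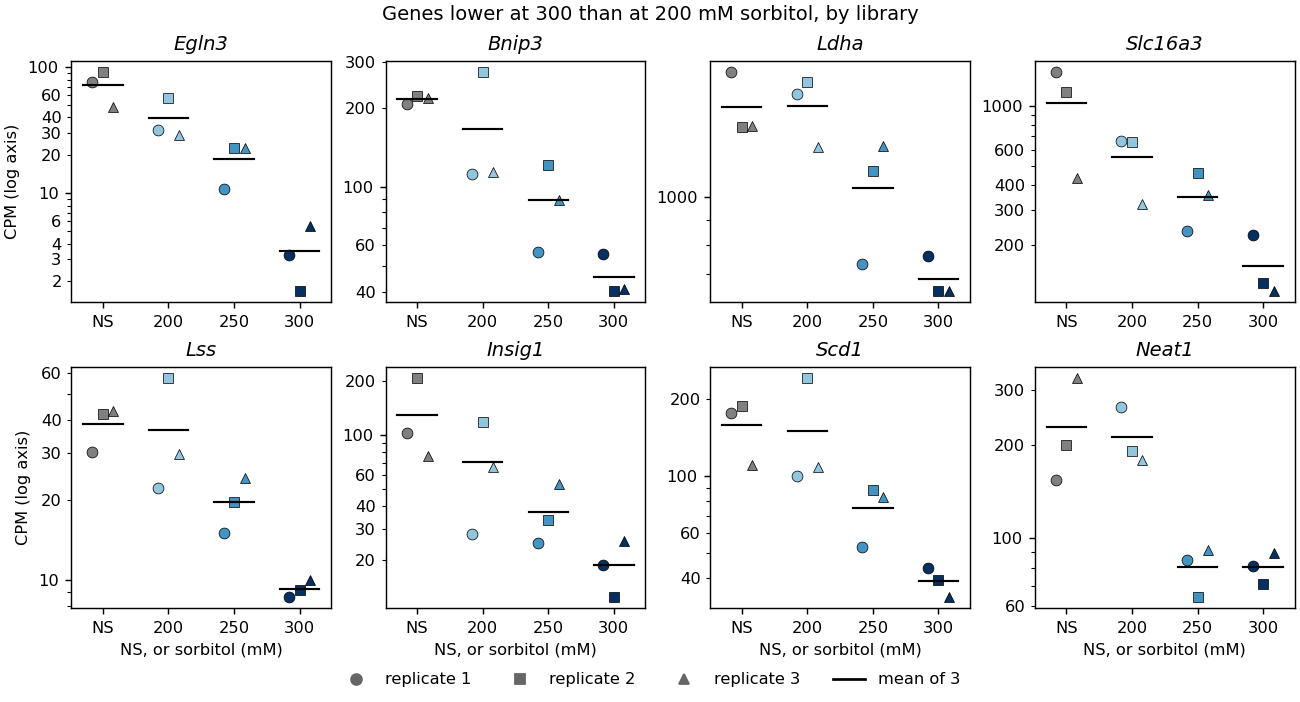
Levels in CPM on log axes of 8 genes in the NS, 200, 250 and 300 mM libraries, with 1 symbol per replicate number and a bar at the mean of 3. In each panel the 3 libraries at 300 mM lie below the 3 at 200 mM, as for Bnip3, with at most 55.5 CPM against at least 112 CPM, and only Egln3 passed in edgeR, while all 8 passed in DESeq2.

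Enzymes that turn glucose into lactate showed the same direction. Of 23 members of the glycolysis list 21 were tested, 18 had a negative log2 change and the median was -0.59, with 0 past the threshold in edgeR and 3 lower in DESeq2, Aldoc, Slc16a3 and Ldha. At an unadjusted p under 0.05, 10 were lower (47.6%, against 6.88% of all genes) and 0 higher, and 7 were lower without overlap (against 7.21%). The medians between libraries of numbers 1, 2 and 3 were -0.73, -0.77 and -0.49. The list shares the glucose transporter genes Slc2a1 and Slc2a3 with the oxygen-responsive list.

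Aldoc, an aldolase, stood at 107, 294 and 83.2 CPM at 200 mM, 45.1, 85.6 and 61.9 CPM at 250 mM and 34.0, 26.7 and 10.03 CPM at 300 mM. The doses followed in order with no overlap of the outer ones (-2.73 ± 0.50, adjusted p = 0.0853 in edgeR). The lactate exporter gene Slc16a3 held 666, 660 and 322 CPM at 200 mM, 235, 459 and 354 CPM at 250 mM and 225, 128 and 117 CPM at 300 mM. All 300 mM libraries were below those of 200 mM (-1.81 ± 0.35, adjusted p = 0.102), and its NS libraries spread from 433 to 1474 CPM. Ldha, the lactate dehydrogenase subunit, was at 1624, 1712 and 1268 CPM against 762, 645 and 646 CPM (-1.17 ± 0.24, adjusted p = 0.107). Its 250 mM libraries, at 732, 1133 and 1270 CPM, spanned most of the distance between them. Gpi1 (glucose phosphate isomerase, -1.08 ± 0.30), Pfkp (platelet-type phosphofructokinase, -0.71 ± 0.22) and Hk2 (hexokinase 2, -0.55 ± 0.21) did not overlap. Aldoa (-1.08 ± 0.29), Pfkl (-0.81 ± 0.27), Hk1 (-0.76 ± 0.33) and Tpi1 (-0.72 ± 0.33) overlapped.

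The list of cholesterol synthesis and uptake had a median of -0.79. Of 25 members 21 were tested, 20 had a negative log2 change, and 0 passed in edgeR while 3 were lower in DESeq2, Insig1, Lss and Sc4mol. At an unadjusted p under 0.05, 12 were lower (57.1%, against 6.88% of all genes) and 0 higher, and 11 were lower without overlap (against 7.21%). The 250 mM mean lay between the outer doses for 18 of the 21. It did so for 41.7% of all genes and 81.1% of those lower at an unadjusted p under 0.05. Between libraries of numbers 1, 2 and 3 the medians were -0.56, -1.06 and -0.55. Without replicate 2 at 200 mM the median was -0.66 and 7 members were lower at an unadjusted p under 0.05 (33.3%, against 5.82% of all genes). Without replicate 1 at 200 mM they were -0.86 and 15 (71.4%, against 7.42%).

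Insig1, the anchor that retains SREBP, stood at 28.1, 118 and 66.3 CPM at 200 mM, 24.9, 33.8 and 53.3 CPM at 250 mM and 18.9, 12.5 and 25.5 CPM at 300 mM. The lowest 200 mM library was only just above the highest at 300 mM (-1.88 ± 0.48, adjusted p = 0.183 in edgeR). Lss, lanosterol synthase, held 22.2, 57.8 and 29.9 CPM at 200 mM, 15.04, 19.6 and 24.3 CPM at 250 mM and 8.62, 9.18 and 10.03 CPM at 300 mM. Its 300 mM libraries lay close together and below all others (-1.95 ± 0.39, adjusted p = 0.107). The sterol oxidase gene Sc4mol (-1.35 ± 0.33), Cyp51, lanosterol demethylase (-0.79 ± 0.22), Dhcr7, the last reductase (-1.45 ± 0.43), and Fdps, farnesyl diphosphate synthase (-1.0 ± 0.33), did not overlap. Mvd (-1.10 ± 0.37) did overlap, and its replicate 3 at 200 mM held 109 CPM against 361 and 359 CPM in replicates 1 and 2. Srebf2, the gene of SREBP2, gave -0.45 ± 0.47, with 34.0 CPM in replicate 1 and 221 CPM in replicate 2 at 200 mM.

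Fatty acid synthesis and desaturation showed a smaller median, -0.49 over 15 tested of 18 members, with 0 past in edgeR and 2 lower in DESeq2, Scd1 and Scd2. Of the 15, 4 were lower at an unadjusted p under 0.05 (26.7%, against 6.88% of all genes). Scd1, the stearoyl-CoA desaturase, stood at 100, 242 and 108 CPM at 200 mM, 52.9, 88.0 and 83.0 CPM at 250 mM and 43.7, 39.2 and 33.7 CPM at 300 mM. The 3 doses did not overlap at all (-1.94 ± 0.35, adjusted p = 0.0853). Its paralog Scd2 gave -1.64 ± 0.40, and Thrsp, a lipogenic cofactor, -2.34 ± 0.62, both without overlap. Fasn, fatty acid synthase, gave -0.77 ± 0.29 with overlap.

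**Figure D3:**
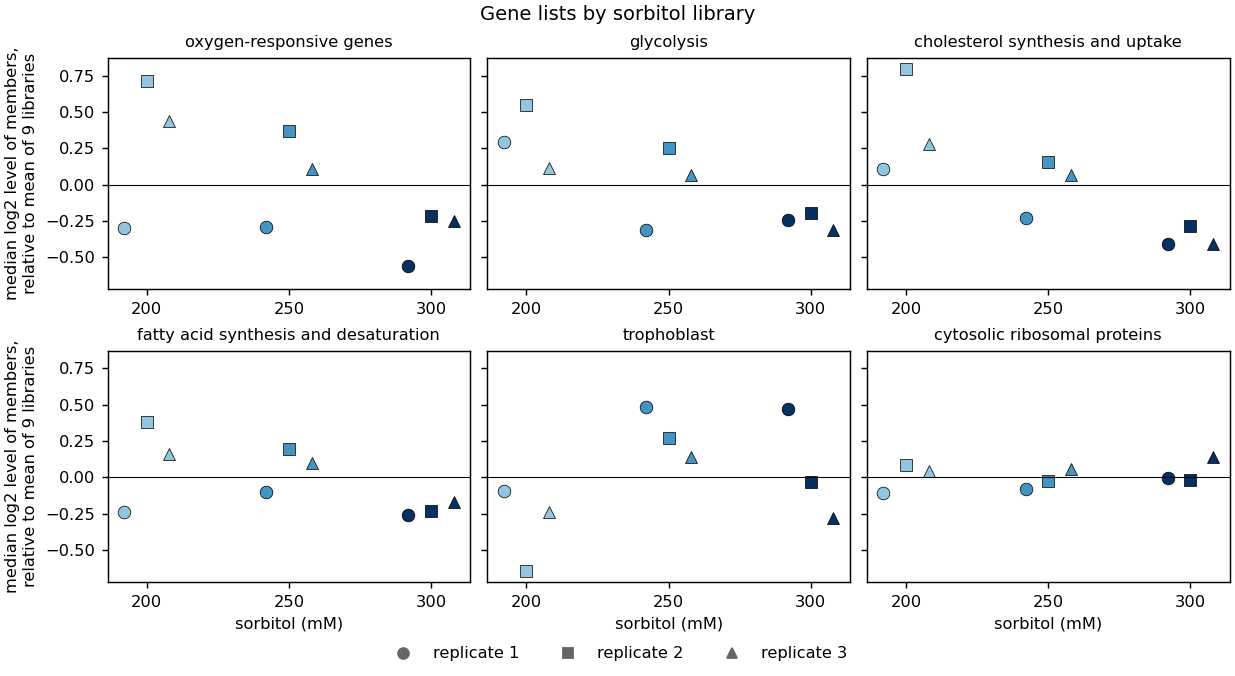
Median log2 level of the tested members of 6 gene lists in each sorbitol library, relative to the mean of the 9 libraries. In the cholesterol list the 200 mM libraries (0.11, 0.80 and 0.28) lie above the 300 mM libraries (-0.41, -0.28 and -0.41). In the oxygen-responsive list replicate 1 at 200 mM (-0.30) lies among the 300 mM libraries. The same holds in the fatty acid list (-0.239, against -0.263, -0.235 and -0.168).

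Outside these pathways, Neat1, Prelid2 and Ndrg2 had the smallest p-values after Egln3 among genes of at least 20 CPM. Neat1 is the long noncoding RNA around which nuclear paraspeckles form. It stood at 264, 190 and 179 CPM at 200 mM, 84.5, 64.4 and 91.6 CPM at 250 mM and 80.8, 70.9 and 89.4 CPM at 300 mM. The 250 and 300 mM libraries overlapped and both were below 200 mM (-1.40 ± 0.24, adjusted p = 0.0853 in edgeR). Malat1, a long nuclear RNA chosen after its values were seen, had the same shape, at 1979, 1247 and 1426 CPM against 628, 491 and 811 CPM (-1.28 ± 0.25, adjusted p = 0.104). The imprinted long RNAs Kcnq1ot1 (-1.20 ± 0.30) and Meg3 (-1.04 ± 0.38) did not overlap between the outer doses. Prelid2, a member of the PRELI family of lipid carriers, held 181, 167 and 111 CPM at 200 mM and 57.7, 51.7 and 52.0 CPM at 300 mM (-1.51 ± 0.26, adjusted p = 0.0853). Ndrg2, of the NDRG family, held 123, 98.1 and 45.3 CPM against 16.7, 17.5 and 20.1 CPM (-2.31 ± 0.40, adjusted p = 0.0853). In both genes the highest 300 mM library was below the lowest at 200 mM. DESeq2's Wald test called Neat1 (adjusted p = 0.000231), Prelid2 (0.000281), Ndrg2 (0.000146) and Malat1 (0.00143).

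Germline and meiosis genes had a median of -0.54 over 16 tested of 29 members, with 0 past in edgeR and 2 lower in DESeq2, Stra8 and Stag3. Of the 16, 7 were lower (43.75%, against 6.88% of all genes) and 1 higher (6.25%, against 3.97%) at an unadjusted p under 0.05. The median was -0.18 without replicate 1 at 300 mM and -0.33 without replicate 3 at 200 mM. Stra8, which opens meiosis in germ cells in response to retinoic acid, held 251, 480 and 238 CPM at 200 mM, 184, 330 and 247 CPM at 250 mM and 141, 86.8 and 62.0 CPM at 300 mM. Its NS libraries, at 88.0 to 97.1 CPM, were below all those at 200 mM. The log2 change between the outer doses was -1.74 ± 0.35 (adjusted p = 0.107). The meiotic cohesin genes Stag3 (-1.22 ± 0.24) and Rec8 (-1.25 ± 0.36) did not overlap, nor did Xlr3a (-0.97 ± 0.25), which has near-identical copies that could share its reads. The member higher at an unadjusted p under 0.05 was Slc25a31, a testis form of the mitochondrial ADP and ATP carrier (1.24 ± 0.40). Of the 16, 5 had a positive log2 change.

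On the higher side, the 6 genes with the smallest p among those of at least 20 CPM without overlap were N6amt2, Dusp12, Gsto1, Trim35, Ngfr and Lmo4, all with an adjusted p of at least 0.14 in edgeR. DESeq2's Wald test called 2 of them, Dusp12 (adjusted p = 0.0222) and Trim35 (0.0404). Dusp12, a dual-specificity phosphatase, stood at 64.0, 82.6 and 91.3 CPM at 200 mM, 121, 136 and 139 CPM at 250 mM and 157, 134 and 168 CPM at 300 mM. All 200 mM libraries were below all those of the higher doses (0.95 ± 0.22, adjusted p = 0.159). Gsto1, an omega-class glutathione transferase, held 12.3, 10.3 and 11.3 CPM at 200 mM and 25.3, 24.2 and 33.7 CPM at 300 mM (1.26 ± 0.30, adjusted p = 0.165). Its NS libraries, at 16.1 to 27.0 CPM, were above those at 200 mM. The nerve growth factor receptor gene Ngfr held 25.6, 12.4 and 28.3 CPM against 40.4, 65.9 and 65.6 CPM (1.33 ± 0.33, adjusted p = 0.183). N6amt2, a methyltransferase gene, gave 1.59 ± 0.34, Trim35, a tripartite motif protein gene, 1.03 ± 0.25, and Lmo4, a LIM-domain cofactor gene, 1.16 ± 0.29.

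**Figure D4:**
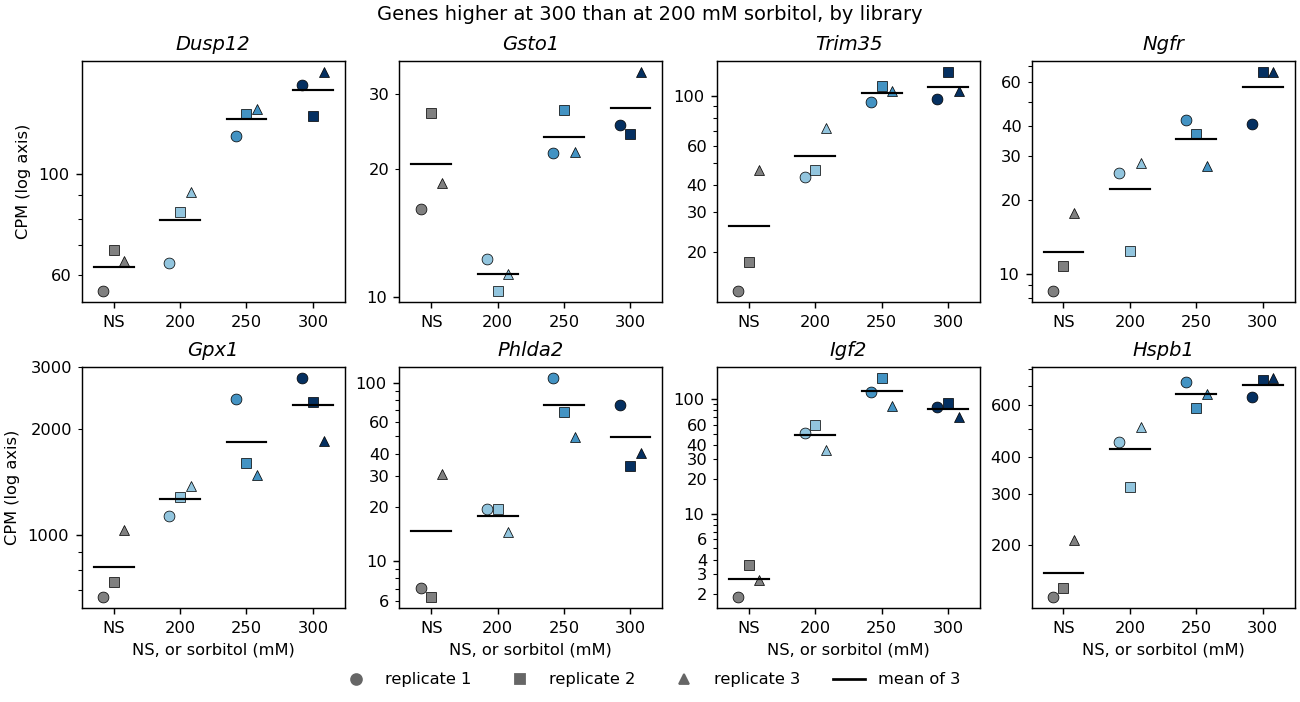
Levels in CPM on log axes of 8 genes in the NS, 200, 250 and 300 mM libraries, with 1 symbol per replicate number and a bar at the mean of 3. The 300 mM libraries lie above the 200 mM libraries in each panel, and for Igf2 and Phlda2 the 250 mM mean lies above both, while of the 8 genes 0 passed in edgeR and 2, Dusp12 and Trim35, in DESeq2.

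Antioxidant genes were mixed. Of 27 members 26 were tested with a median of -0.07 (0.02 without replicate 1 at 200 mM). At an unadjusted p under 0.05, 3 were higher (11.5%, against 3.97% of all genes) and 1 lower (3.85%, against 6.88%). Gpx1, a glutathione peroxidase, stood at 1132, 1284 and 1380 CPM at 200 mM, 2433, 1599 and 1479 CPM at 250 mM and 2796, 2389 and 1852 CPM at 300 mM. The 2 outer doses did not overlap (0.88 ± 0.24, adjusted p = 0.208). Nqo1, a quinone reductase, gave 1.03 ± 0.29 and the metallothionein gene Mt1 -1.03 ± 0.26, both without overlap.

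Among genes of the osmotic response 0 passed in edgeR or in DESeq2. Slc5a3, the sodium and myo-inositol carrier, held 25.1, 17.6 and 17.0 CPM at 200 mM, 13.0, 7.85 and 7.05 CPM at 250 mM and 12.4, 13.4 and 10.9 CPM at 300 mM. It was highest at the lowest dose without overlap, and its NS libraries held 5.30 to 7.20 CPM (-0.72 ± 0.35, 95% interval -1.47 to 0.02, adjusted p = 0.473). The taurine carrier gene Slc6a6 gave 0.51 ± 0.35 and the aldose reductase family gene Akr1b8 0.33 ± 0.33. Akr1b3, aldose reductase, had 18 counts at 200 mM and 19 at 300 mM, too few to be tested. Of the 19 genes of the osmolyte list 11 were tested, with a median of 0.33 and 1, the kinase gene Sgk1 (0.59 ± 0.27), higher at an unadjusted p under 0.05 (9.09%, against 3.97% of all genes). That median was -0.01 without replicate 1 at 200 mM and -0.03 without replicate 2.

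Among chaperones the median was 0.21 over the 19 tested cytosolic heat shock genes and -0.23 over the 21 genes of the unfolded protein response, and the difference between the lists was not tested. In edgeR 0 members passed in either. Among the 19 heat shock genes 1 was higher (5.26%, against 3.97% of all genes) and 1 lower (5.26%, against 6.88%) at an unadjusted p under 0.05. The 21 unfolded protein genes had 4 lower (19.05%, against 6.88%) and 0 higher at that p, and 7 had a positive log2 change, up to 0.77. In DESeq2 1 unfolded protein gene, Ero1l, was lower. Hspb1, a small heat shock protein, held 452, 317 and 506 CPM at 200 mM, 719, 589 and 655 CPM at 250 mM and 640, 733 and 747 CPM at 300 mM. The 200 mM libraries were below all the others (0.72 ± 0.22, adjusted p = 0.255 in edgeR). In the endoplasmic reticulum Sdf2l1 (-1.28 ± 0.39), Herpud1 (-0.64 ± 0.23) and the HSP90 form Hsp90b1 (-0.68 ± 0.27) did not overlap. The unfolded protein list, which also holds Ero1l, had a median of -0.07 without replicate 2 at 200 mM, and the heat shock list had 0.08 without replicate 3 at 300 mM.

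Of the factors that hold the stem cell state, 0 passed in edgeR. Sox2 stood at 529, 509 and 454 CPM at 200 mM, 310, 387 and 448 CPM at 250 mM and 349, 290 and 343 CPM at 300 mM. The outer doses did not overlap (-0.61 ± 0.21, adjusted p = 0.299 in edgeR). Nanog (0.31 ± 0.43), Zfp42 (0.27 ± 0.43) and Pou5f1 (0.04 ± 0.29), which has near-identical pseudogenes, overlapped. For these 3 the 95% intervals ran from -0.61 to 1.23, from -0.65 to 1.19 and from -0.58 to 0.66. Zfp42 held 227, 71.3 and 289 CPM at 200 mM, so its spread within a dose was wider than the difference between doses. Trim28, a corepressor that silences retroviral elements, gave 0.60 ± 0.20 and the TGF-beta family ligand gene Gdf3 0.69 ± 0.26, both without overlap. Among LIF and STAT3 genes Ier3, an immediate early gene, held 172, 356 and 137 CPM at 200 mM against 70.1, 35.0 and 42.9 CPM at 300 mM (-2.15 ± 0.43, adjusted p = 0.107 in edgeR and 0.000717 in DESeq2). Klf4, a naive factor, gave -0.81 ± 0.31 with overlap. Ier3 and Klf4 were the lowest members of their lists. Of the 13 tested LIF and STAT3 genes 8 had a positive log2 change, up to 1.04. Of the 18 tested naive genes 13 did, up to 1.40.

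Trophoblast genes had a median of 0.41 over 21 tested of 24 in the files. Of these 19 had a positive log2 change, and 0 passed in edgeR or in DESeq2. Higher at an unadjusted p under 0.05 were 4 (19.05%, against 3.97% of all genes), and 0 were lower (against 6.88%). Without replicate 1 at 300 mM the median was 0.23. Without replicate 2 at 200 mM it was 0.38, with 2 members higher at an unadjusted p under 0.05 (9.52%, against 2.89% of all genes). The 10 fixed trophoblast markers summed to 150 to 441 CPM at 200 mM and to 307 to 456 CPM at 300 mM, so the groups overlapped. Phlda2, an imprinted placental growth restrictor, held 19.7, 19.6 and 14.5 CPM at 200 mM, 107, 68.3 and 49.3 CPM at 250 mM and 74.9, 34.2 and 40.1 CPM at 300 mM. The 250 mM mean was above both other doses (1.47 ± 0.38, adjusted p = 0.183 in edgeR). Krt8, a keratin of simple epithelia, showed the same order, at 53.2, 35.1 and 63.8 CPM, 136, 107 and 110 CPM, and 86.2, 98.5 and 79.3 CPM at 200, 250 and 300 mM (0.78 ± 0.25). Its partner Krt18 gave -0.21 ± 0.50, and its 200 mM libraries spread from 55.8 to 311 CPM. Igf2, the imprinted fetal growth factor, also peaked at 250 mM, with 50.2, 59.9 and 36.4 CPM at 200 mM, 115, 154 and 86.9 CPM at 250 mM and 84.6, 91.8 and 69.3 CPM at 300 mM. The NS libraries held 1.89 to 3.60 CPM (0.74 ± 0.28 between the outer doses, adjusted p = 0.364).

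Primitive endoderm genes had a median of 0.39 over 13 tested of 28 members, with 0 past in edgeR or in DESeq2. Of the 13, 2 were higher (15.4%, against 3.97% of all genes) and 1 lower (7.69%, against 6.88%) at an unadjusted p under 0.05. The median was 0.72 without replicate 1 at 200 mM. The 8 fixed markers, of which 2 were tested, summed to 22.7 to 25.1 CPM at 200 mM and to 41.7 to 46.9 CPM at 300 mM, without overlap. At 250 mM they summed to 33.7 to 59.65 CPM. Gata4 (12 counts at 200 mM and 7 at 300 mM) and Afp (6 and 2) went the other way. Gata6, a transcription factor of that lineage, held 3.45, 13.4 and 12.1 CPM at 200 mM and 16.2, 17.5 and 22.8 CPM at 300 mM (1.04 ± 0.47, adjusted p = 0.446). Its 250 mM mean, 24.1 CPM, lay above that of both. The basement membrane collagen gene Col4a1 gave 0.86 ± 0.27 and the basement membrane linker gene Nid2 -1.31 ± 0.42, both without overlap.

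Of the 27 tested actin and YAP target genes 22 had a positive log2 change, with a median of 0.24, 0 past in edgeR and 1, Anxa3, higher in DESeq2. At an unadjusted p under 0.05, 4 were higher (14.8%, against 3.97% of all genes) and 0 lower. S100a10, a partner of annexin A2, held 67.5, 83.7 and 97.8 CPM at 200 mM, 124, 122 and 154 CPM at 250 mM and 148, 143 and 160 CPM at 300 mM. The 200 mM libraries lay below the rest (0.86 ± 0.22, adjusted p = 0.183). Vim, the intermediate filament protein vimentin, gave 1.19 ± 0.33 and was the highest member of the adhesion list. Of the 20 tested members of that list 12 had a negative log2 change, and the median was -0.14. At an unadjusted p under 0.05, 2 were higher (10%, against 3.97% of all genes) and 1 lower (5%, against 6.88%).

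The LIF and STAT3 list had a median of 0.07 (-0.19 without replicate 1 at 200 mM), the naive list 0.14 (-0.03 without replicate 2 at 200 mM) and the core list 0.23 (0.40 without replicate 1 and 0.11 without replicate 2 at 200 mM). The medians of the other lists with at least 10 tested members lay between -0.20 (p53 targets) and 0.26 (amino acid transport), with 0 members past in edgeR. Both ends rested on single libraries: the p53 list had -0.04 without replicate 2 at 200 mM and -0.09 without replicate 1 at 300 mM, and the amino acid list 0.11 without replicate 2 and 0.54 without replicate 3 at 200 mM. Lists of bulk cell machinery lay near the median of all genes, with -0.01 over 79 cytosolic ribosomal protein genes, many of which have processed pseudogenes, 0.04 over 73 genes of oxidative phosphorylation and 0.09 over 30 genes of S phase and mitosis (-0.08 without replicate 1 at 200 mM). Among the 79 ribosomal genes 2 were higher and 3 lower at an unadjusted p under 0.05 (2.53% and 3.80%), among the 73 respiratory genes 3 and 2 (4.11% and 2.74%). Over all genes the shares were 3.97% and 6.88%.

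**Figure D5:**
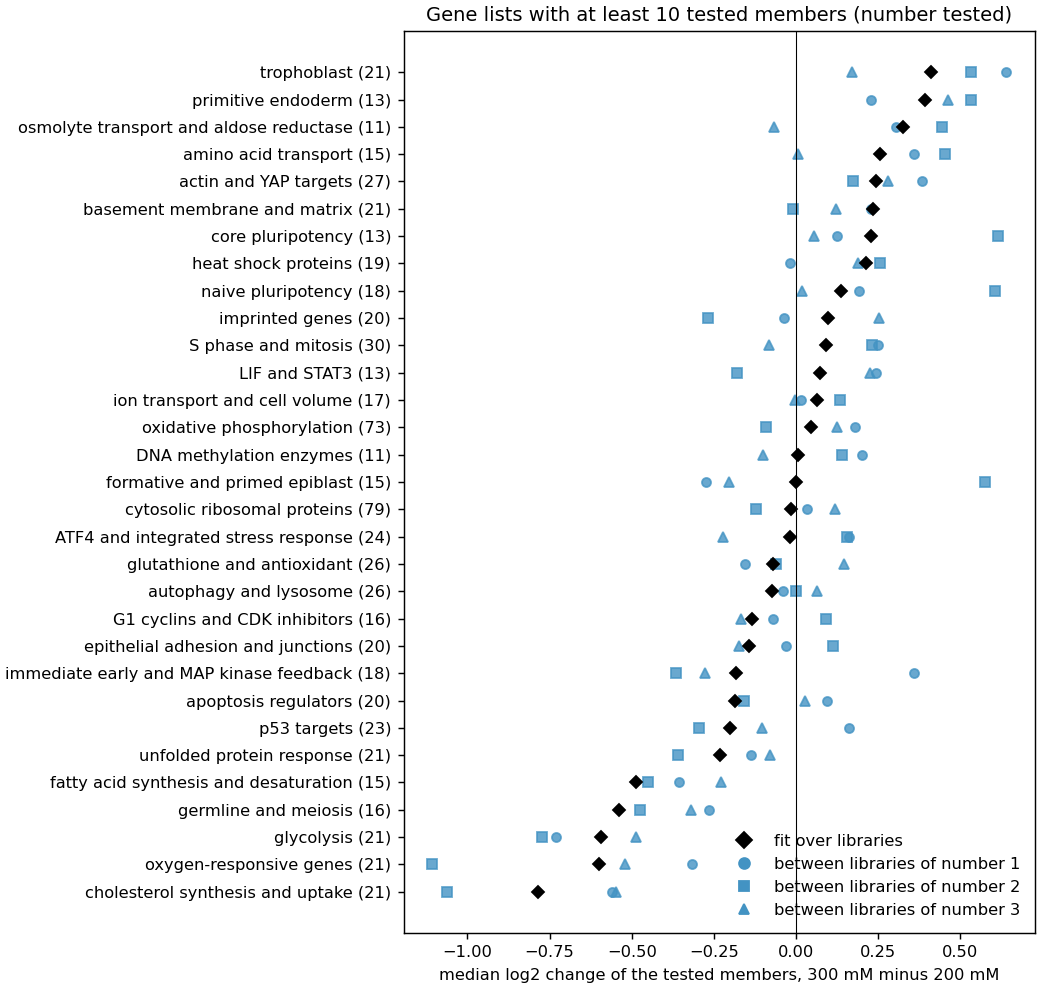
Median log2 change (300 mM minus 200 mM) of the 31 gene lists with at least 10 tested members, from the fit (diamonds) and between the libraries of each replicate number (other symbols). The cholesterol, oxygen-responsive and glycolysis lists lie lowest, at -0.79, -0.60 and -0.59, with each replicate number below 0, and the trophoblast and primitive endoderm lists lie at 0.41 and 0.39 on the other side.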

How the data were processed

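The authors' deposited tables hold whole-number counts of reads per gene symbol, and these counts were the input of all tests. Base calling with CASAVA 1.8.2, alignment with STAR to mm9, counting with HTSeq and testing with edgeR are named in the submitters' processing notes. Nothing on the other versions, the annotation or the strand setting is given in the sources used here, so reads of antisense or overlapping genes cannot be told apart. 0 columns were left without a sample, and the deposited tests were not used. The counts hold no molecular identifiers, so depth limits cover counting error only.

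Counts were tested in R 4.3.3 with edgeR 4.0.16 (glmQLFit, glmQLFTest), TMM factors and filterByExpr (minimum count 10, minimum total 15). The 9 sorbitol libraries entered 1 fit with a coefficient per dose, and p-values were adjusted by Benjamini-Hochberg over the 8928 genes tested. The scripts were tested on simulated data. The SE is the log2 change over the square root of F. Printed CPM use TMM factors of all 15 libraries. No 2 libraries of a dose were duplicates (chi-square per degree of freedom 2.45 to 20.0). Principal components used edgeR's log2 CPM with a prior count of 2 and the TMM factors of the 9 sorbitol libraries. List medians by library and by replicate number used log2(CPM + 0.5). DESeq2 1.42.0 and other scalings, filters and sets of libraries were alternatives.

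The comparison, the 35 gene lists and the named genes were chosen with earlier results of these data known. The rule named Zfp42, Nanog, Pou5f1, Sox2, Slc5a3, Akr1b3, Igf2, Hspb1, Egln3 and Insig1 always. It added up to 12 genes per direction past the threshold, or else filled up to 6 by smallest p, with a mean of 20 CPM or more in the higher group and libraries of the doses that do not overlap. The other genes were chosen after their values were seen. No list was tested as a whole. The values of some members of the lists are not reported here.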

Additional observations from a re-analysis of the deposited data

How the results depend on the processing

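The count of genes past the threshold depended on the processing. In edgeR it was 1 in the fit reported, 1 with DESeq2 size factors, 0 with library totals alone (952 at an unadjusted p under 0.05; Egln3 adjusted p = 0.0913), 2 with all 15 libraries and 0 with the 6 libraries alone (640; 0.127). It was 161 without the low-count filter (124 lower, 37 higher) and 42 in DESeq2 (37 lower, 5 higher). Leaving out 1 library gave 0 to 134 calls in edgeR, with 134 (104 lower, 30 higher) without replicate 3 at 200 mM, 3 without replicate 1, and 0 without replicate 2 at 200 mM or any 1 library at 300 mM (580 to 1156 at an unadjusted p under 0.05). With replicates 2 and 3 alone 1 other gene passed, and Egln3 stood at 0.0506. The causes were not tested.

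With the replicate number as a block 158 genes passed in edgeR (116 lower, 42 higher; Egln3 adjusted p = 0.00266). The deviations of same-numbered libraries at 200 and 300 mM correlated at 0.57, 0.08 and 0.47. Those of 250 mM correlated at 0.36, 0.17 and 0.22 with 200 mM and at 0.47, 0.23 and 0.34 with 300 mM. Between different numbers the correlations ran from -0.53 to 0.20. Replicate 2 at 300 mM correlated better with replicate 3 at 200 mM (0.20) than with replicate 2 there (0.08). Replicate 1 held the most counts at each dose (1872918 to 2216518). No label says that the numbers pair samples, so the block was kept as an alternative only.

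Over 14 alternatives the medians of the oxygen-responsive (-0.88 to -0.27), glycolysis (-0.73 to -0.53), cholesterol (-0.86 to -0.66), fatty acid (-0.50 to -0.33) and trophoblast (0.23 to 0.59) lists kept their sign, as did that of the germline list (-0.56 to -0.08). Of 490 values of the 35 lists 51 turned sign. Of 1312 values of 94 genes followed singly (those named and others of the lists) 0 were called in the other direction and 142 newly passed the threshold. Another 7 lost it, and 14 turned sign without passing in either fit. The share of lower genes at an unadjusted p under 0.05 with the 250 mM mean between the others was 79.3% with DESeq2 size factors and 84.0% with library totals.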

Other observations

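Several genes under 20 CPM also separated the outer doses, and all were chosen after their values were seen. Egfl6, a secreted matrix protein gene, held 4.92, 3.10 and 5.66 CPM at 200 mM, 16.6, 17.3 and 14.1 CPM at 250 mM and 16.2, 20.03 and 21.0 CPM at 300 mM (log2 change 1.99 ± 0.36, adjusted p = 0.0853 in edgeR, higher in 3 of 3 libraries). It was the gene with the smallest p on the higher side. Evx1, a homeobox gene of the primitive streak, held 0.49, 1.03 and 4.04 CPM at 200 mM and 15.6, 10.8 and 14.6 CPM at 300 mM (adjusted p = 0.151 in edgeR), on 7 and 58 counts. Anxa3, an annexin gene, held 5.42, 3.10 and 1.62 CPM against 22.1, 12.5 and 21.0 CPM (adjusted p = 0.151 in edgeR). Acta2, smooth muscle actin, had 2 counts at 200 mM and 72 at 300 mM, a ratio per total count of 38.3 with a 95% interval from counting error of 10.2 to 322, and its 300 mM libraries spread from 5.01 to 29.6 CPM.

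On the lower side Prkcb, a protein kinase C gene, held 11.3, 21.7 and 16.2 CPM at 200 mM and 2.69, 2.50 and 1.82 CPM at 300 mM (adjusted p = 0.0853 in edgeR). Its 250 mM libraries, at 4.67, 2.36 and 5.48 CPM, lay near those of 300 mM. Cox6b2, the testis form of a cytochrome oxidase subunit, held 13.8, 16.5 and 12.1 CPM against 3.23, 2.50 and 1.82 CPM (adjusted p = 0.0853 in edgeR), again with 250 mM libraries, at 3.92 to 4.67 CPM, near the highest dose. DESeq2's Wald test called Egfl6 (adjusted p = 0.0189), Evx1 (0.0428), Anxa3 (0.0337), Prkcb (0.016) and Cox6b2 (0.0356).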
